A study of Homo sapiens with 30 samples.

Results

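The 10 genes ALB, AFP, TTR, AHSG, FGA, FGB, FGG, SERPINF2, ITIH2 and AMBP encode plasma proteins that the liver secretes into the blood, AFP above all before birth, and the colorectal cancer line Caco2 transcribes them all. They were chosen by symbol, from the 24462 gene symbols counted in each library, because several of them were lower in Caco2 cells given differentiation medium than in cells given vehicle. That comparison is therefore described here without a test. The comparisons of SETDB1-hairpin cells with either of those groups reuse the same libraries and are likewise described.

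Plasma proteins of this kind are made by hepatocytes, loaded into the secretory pathway and released in large amounts. Albumin and alpha-fetoprotein are neighbouring, related carrier proteins, of which alpha-fetoprotein dominates before birth and albumin after it. The 3 fibrinogen chains assemble into the clot precursor, and their genes lie side by side. HNF4A, the FOXA factors and the C/EBP factors are the transcription factors best known for binding the promoters of such genes. Caco2 cells come from a colon carcinoma and are widely used as a model of gut epithelium.

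Transcripts were counted by QuantSeq, a method that sequences 1 short tag from the 3′ end of a polyadenylated RNA, in 30 libraries of Caco2, HCT116 and SW480, 3 per group in 10 groups. Caco2 carried either a scrambled hairpin (shScramble) with vehicle, shScramble with differentiation medium, or a hairpin against SETDB1 (shSETDB1), a histone methyltransferase that silences genes and repeats. The differentiation medium contained troglitazone at 10 uM, an agonist of the nuclear receptor PPARG, and 1α,25-dihydroxyvitamin D3 at 25 nM, the ligand of the vitamin D receptor, from day 3 after retroviral transduction. The shSETDB1 cells had been sorted into a KRT20-negative and a KRT20-positive fraction, KRT20 being a keratin of mature gut epithelium. For HCT116 and SW480 the groups were shSETDB1 KRT-negative, shSETDB1 KRT-positive and unsorted cells. Transduced cells were under puromycin. The labels do not give the medium of the shSETDB1 and unsorted cells, the hairpin of the latter, or whether replicates were separate cultures, so p-values measure the spread between these libraries, which may be technical. Every shSETDB1 library comes from a sorted fraction, whereas the labels give no sort for the scramble cells. In comparisons of shSETDB1 with scramble or unsorted cells, the hairpin therefore cannot be told apart from sorting or medium.

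Depth ranged from 6538087 to 10074838 counts per library in Caco2. For HCT116 it was 5349737 to 10221854, and for SW480 6915326 to 10036179. A count of 0 therefore allows a level of up to 0.298 to 0.459 CPM (counts scaled to a common library size) in Caco2, by counting error alone. Replicates were far closer in Caco2, with a chi-square between them, divided by its degrees of freedom, of 2.16 to 15.2, than in HCT116 (36.6 to 87.1) or SW480 (40.0 to 135). In Caco2, SETDB1 was at 32.2, 31.2 and 28.9 CPM with vehicle, 32.7, 32.1 and 37.9 with differentiation medium, 19.5, 23.8 and 21.0 in KRT20-negative and 19.7, 23.1 and 26.1 in KRT20-positive cells, so every hairpin library was below every scramble library. KRT20 averaged 1.01 ± 0.21 CPM with vehicle, 7.68 ± 1.45 with differentiation medium, 1.3 ± 0.4 in KRT20-negative and 32.9 ± 6.2 in KRT20-positive cells (SD, n = 3). Caco2 KRT20-negative replicate 3 stood apart. Its 14 fibroblast markers summed to 911 CPM, against 57.2 to 175 in the other 11 Caco2 libraries, and all 14 were highest there. Its AFP, ALB, FGB, FGG and ITIH2 values were the lowest of its group, and its TTR, AHSG, FGA, SERPINF2 and AMBP values the highest. Results that use this library are given without it too where the call depends on it.

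The promoters show what some of these genes share in sequence. The table of RefSeq promoters on GRCh38.p14 held 7 of the 10 genes, ALB, AFP, AHSG, FGA, FGB, FGG and AMBP. The 250 bases before the start site were searched on both strands for the FOXA core TGTTTNC, matched exactly. ALB, AHSG, FGA and AMBP held it, 4 of the 7 windows, against 15.5% of the 35114 windows in the table. The matches began 176 bases before the start in ALB, 160 in FGA, 47 in AMBP and, in AHSG, 137 and 116. Those windows are printed 5′ to 3′ on the strand of the gene with the FOXA matches in capitals, and AFP, which had no match in its window, is printed for contrast.
ALB, chr4:73404037-73404286, plus strand: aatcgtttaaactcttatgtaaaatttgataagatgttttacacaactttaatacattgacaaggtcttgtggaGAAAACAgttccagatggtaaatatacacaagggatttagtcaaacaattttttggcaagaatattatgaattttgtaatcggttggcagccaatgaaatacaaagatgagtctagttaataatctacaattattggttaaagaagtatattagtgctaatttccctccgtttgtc
AHSG, chr3:186612810-186613059, plus strand: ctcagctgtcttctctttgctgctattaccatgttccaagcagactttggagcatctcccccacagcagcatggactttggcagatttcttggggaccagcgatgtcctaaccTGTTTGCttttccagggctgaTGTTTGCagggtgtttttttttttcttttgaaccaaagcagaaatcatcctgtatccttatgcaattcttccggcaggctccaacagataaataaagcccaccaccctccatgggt
FGA, chr4:154590743-154590992, minus strand: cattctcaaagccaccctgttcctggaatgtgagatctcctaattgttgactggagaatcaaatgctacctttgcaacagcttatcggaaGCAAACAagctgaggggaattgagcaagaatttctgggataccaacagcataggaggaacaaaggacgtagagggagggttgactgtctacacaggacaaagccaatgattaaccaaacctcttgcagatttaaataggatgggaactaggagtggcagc
AMBP, chr9:114078301-114078550, minus strand: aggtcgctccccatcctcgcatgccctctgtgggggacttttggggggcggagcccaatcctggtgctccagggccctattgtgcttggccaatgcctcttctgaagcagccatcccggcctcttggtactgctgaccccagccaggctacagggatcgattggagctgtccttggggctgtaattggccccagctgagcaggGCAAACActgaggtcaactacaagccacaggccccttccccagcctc
AFP, chr4:73435971-73436220, plus strand: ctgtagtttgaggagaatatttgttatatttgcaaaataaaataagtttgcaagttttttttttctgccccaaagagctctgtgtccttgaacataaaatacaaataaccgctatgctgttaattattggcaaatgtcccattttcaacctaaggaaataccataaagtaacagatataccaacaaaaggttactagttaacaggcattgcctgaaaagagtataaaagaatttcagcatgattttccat
The other motifs searched do not overlap the FOXA matches. An HNF4 motif, CAAAGTCCA with up to 1 mismatch, was found in AHSG alone among the 7 and in 5.94% of all windows. A C/EBP motif, TTGCGCAA with up to 1 mismatch, was found in FGA alone and in 4.95% of all windows. These are matches of letters, and binding was not measured.

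Across the 12 Caco2 libraries the 10 transcripts shared an order: they were lowest with differentiation medium, higher with vehicle and highest in the 2 shSETDB1 fractions, with TTR, equal in both scramble groups, as the exception. Levels are in CPM scaled by TMM factors of the Caco2 libraries. As a 3′ tag is read about once per transcript, levels of different genes can be set side by side without dividing by length. The 10 genes together took 0.128% ± 0.003 of all counts with vehicle, 0.0703% ± 0.0028 with differentiation medium, 0.897% ± 0.088 in KRT20-negative and 0.938% ± 0.024 in KRT20-positive cells (SD, n = 3). AFP alone took 0.0405%, 0.0130%, 0.477% and 0.579% in the same order, so the totals of both fractions are mostly AFP. In bulk samples, fewer expressing cells and less RNA per expressing cell cannot be told apart.

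**Figure D1:**
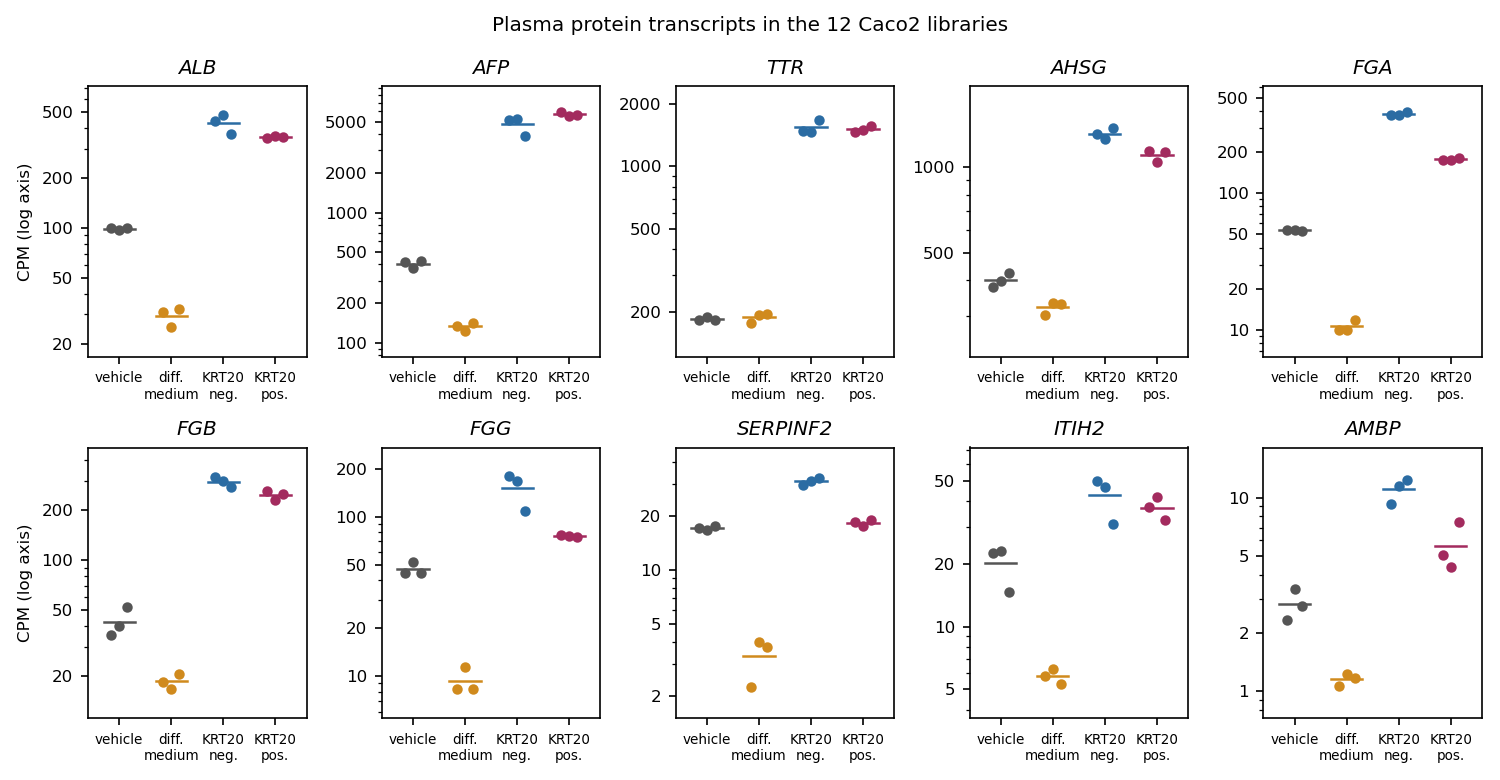
CPM (log axis, a separate range per panel) of each of the 10 transcripts in the 12 Caco2 libraries, with points for libraries and lines for means of 3. Apart from TTR, the differentiation medium libraries lie lowest in every panel, and all 6 shSETDB1 libraries lie above all 3 vehicle libraries, by only 1.07-fold for SERPINF2 in the KRT20-positive fraction.

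AFP, the fetal carrier protein, had the widest range. It was at 415, 376 and 421 CPM with vehicle and at 135, 123 and 143 CPM with differentiation medium. In shSETDB1 cells it was at 5152, 5270 and 3853 CPM in the KRT20-negative and 5944, 5541 and 5599 CPM in the KRT20-positive fraction. The groups with and without the hairpin were far from overlapping, and AFP moved from rank 374 of all symbols by mean level with vehicle to rank 6 in KRT20-negative and rank 5 in KRT20-positive cells. The mean was 3.03-fold lower with differentiation medium than with vehicle (log2 -1.60, SE 0.10), 11.8-fold higher in KRT20-negative (3.56, SE 0.10) and 14.1-fold higher in KRT20-positive cells (3.82, SE 0.10).

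ALB, the main carrier of adult plasma, lay well below AFP in every library. It was at 100.1, 97.8 and 99.3 CPM with vehicle, 31.0, 25.0 and 32.5 with differentiation medium, 443, 479 and 370 in KRT20-negative and 352, 360 and 356 in KRT20-positive cells. No 2 of these groups overlapped. Its level was 3.36-fold lower with the medium (log2 -1.74, SE 0.10) and 4.35-fold higher in KRT20-negative cells than with vehicle (2.12, SE 0.09). Because AFP differed more, the AFP to ALB ratio went from 4.08 ± 0.21 with vehicle and 4.55 ± 0.31 with the medium to 11.02 ± 0.60 in KRT20-negative and 16.0 ± 0.8 in KRT20-positive cells (SD, n = 3).

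TTR, which carries thyroid hormone and the retinol-binding protein, did not follow the medium. It was at 184, 189 and 184 CPM with vehicle and 177, 194 and 195 CPM with differentiation medium, which overlap, with a fitted log2 difference of 0.02 (SE 0.07, 95% interval -0.12 to 0.16). In shSETDB1 cells it was at 1485, 1460 and 1672 CPM in the KRT20-negative and 1466, 1503 and 1563 CPM in the KRT20-positive fraction, 8.29-fold and 8.13-fold above vehicle. TTR thus differed from vehicle more strongly than any of the others except AFP in both hairpin fractions, and showed no clear difference with the medium. RBP4, its partner in plasma, named here after its values were seen, was tested and rose in all 3 comparisons with vehicle, from 483 CPM to 633 with the medium (log2 0.39, SE 0.07, edgeR adjusted p = 0.000165), 926 in KRT20-negative (0.94, SE 0.07, adjusted p = 1.05e-10) and 840 in KRT20-positive cells (0.80, SE 0.07, adjusted p = 1.33e-09).

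AHSG, the calcium-binding protein fetuin-A, differed little with the medium. Its levels were 379, 396 and 424 CPM with vehicle, 301, 331 and 329 with the medium, 1308, 1259 and 1382 in KRT20-negative and 1140, 1044 and 1133 in KRT20-positive cells. The medium group lay below vehicle by 1.25-fold only, and the fractions lay 3.29-fold and 2.77-fold above it.

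Of the fibrinogen chains, FGA and FGG had some of the steepest differences with the medium, and FGB one of the smaller. FGA, the alpha chain, was at 54.0, 53.5 and 52.9 CPM with vehicle, 9.90, 9.98 and 11.9 with differentiation medium, 371, 373 and 389 in KRT20-negative and 174, 173 and 182 in KRT20-positive cells. These 4 groups were narrow and did not overlap, and FGA was 5.06-fold lower with the medium and 7.06-fold higher in KRT20-negative cells than with vehicle. FGB, the beta chain, was at 35.5, 39.8 and 52.3 CPM with vehicle, 18.4, 16.7 and 20.6 with the medium, 318, 299 and 277 in KRT20-negative and 260, 231 and 250 in KRT20-positive cells. FGG, the gamma chain, was at 44.3, 51.9 and 44.5 CPM with vehicle, 8.25, 11.4 and 8.25 with the medium, 179, 168 and 108 in KRT20-negative and 76.9, 75.9 and 74.4 in KRT20-positive cells. The lowest KRT20-negative value of FGG is that of replicate 3, and it still lay above every library of the other groups. Against vehicle, FGB was 2.29-fold and FGG 5.05-fold lower with the medium, and in KRT20-negative cells FGB was 6.997-fold and FGG 3.23-fold higher.

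The protease inhibitors were the scarcest. SERPINF2, the inhibitor of plasmin, was at 17.2, 16.7 and 17.5 CPM with vehicle, 2.24, 3.99 and 3.74 with the medium, 29.7, 31.3 and 32.3 in KRT20-negative and 18.5, 17.6 and 18.998 in KRT20-positive cells. It was 5.15-fold lower with the medium. In KRT20-positive cells it was hardly above vehicle, by a fitted log2 of 0.10 with a 95% interval of -0.18 to 0.39, although the 3 libraries lay just above the other 3. ITIH2, a heavy chain of the inter-alpha-trypsin inhibitors, was at 22.5, 23.1 and 14.7 CPM with vehicle, 5.78, 6.30 and 5.29 with the medium, 49.7, 47.0 and 31.1 in KRT20-negative and 37.4, 41.7 and 32.5 in KRT20-positive cells. AMBP, the precursor of bikunin, the light chain that is joined to ITIH2, and of alpha-1-microglobulin, was at 2.33, 3.36 and 2.76 CPM with vehicle, 1.06, 1.23 and 1.16 with the medium, 9.24, 11.5 and 12.4 in KRT20-negative and 5.07, 4.38 and 7.47 in KRT20-positive cells. For both, the medium libraries were the lowest and the hairpin libraries the highest.

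In all, 9 of the 10 genes were lower in every differentiation medium library than in every vehicle library, a pattern that 19.4% of the 13968 tested genes also showed. The choice of the genes fixed that count, and nothing is read from it. Each of the 10 was higher in all 3 KRT20-negative libraries than in all 3 vehicle libraries, as were 23% of tested genes, and higher in all 3 KRT20-positive libraries than with vehicle, as were 26%. The same held for all 10 against differentiation medium, where 23.8% of tested genes were higher in the KRT20-negative and 24.6% in the KRT20-positive libraries. These comparisons share the scramble libraries with one another and with the choice of the genes. The median log2 difference of the 10 from vehicle was -1.67 with the medium, 2.04 in KRT20-negative and 1.59 in KRT20-positive cells, beside 0.00, 0.01 and 0.01 over all tested genes. Against the medium, the largest fold was that of AFP in KRT20-positive cells, 42.7-fold.

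Whether the sorted fractions of shSETDB1 cells differed was tested, since no library of the comparison that chose the genes enters it other than through the shared scaling and estimate of spread. FGA, FGG, SERPINF2, AMBP and AHSG were lower in KRT20-positive than in KRT20-negative cells, 5 of 10, and none was higher, where edgeR called 1.78% of all tested genes lower and 2.3% higher. FGA fell by 1.10 on the log2 scale (SE 0.07, edgeR quasi-likelihood adjusted p = 5.87e-10), to 176 ± 5 from 378 ± 10 CPM (SD, n = 3). FGG fell by 1.00 (SE 0.15, adjusted p = 0.000688) and SERPINF2 by 0.76 (SE 0.14, adjusted p = 0.00155). AMBP fell by 0.97 (SE 0.23, adjusted p = 0.0152) and AHSG by 0.25 (SE 0.07, adjusted p = 0.0365). In each of these 5 genes all 3 KRT20-positive libraries lay below all 3 KRT20-negative ones.

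The other 5 did not pass. ALB differed by -0.27 (SE 0.09, adjusted p = 0.0887) and FGB by -0.27 (SE 0.10, adjusted p = 0.154), with no overlap of libraries in either. ITIH2 differed by -0.19 (SE 0.17, adjusted p = 0.626) and TTR by -0.03 (SE 0.07, 95% interval -0.16 to 0.11, adjusted p = 0.896), and their libraries overlapped. AFP was the only one with a higher mean in the KRT20-positive fraction, by 0.26 (SE 0.09, adjusted p = 0.138), and its libraries did not overlap. On leaving out 1 library, the AFP difference was 0.127 to 0.339. The median over the 10 was -0.27, beside -0.00 over all tested genes.

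FGA, FGG and SERPINF2 kept the call whichever library was left out. AHSG lost it without KRT20-negative replicate 1 or 3 or without any 1 KRT20-positive library, with an adjusted p of 0.0511 to 0.182, and also when only the 2 fractions were fitted (0.131). AMBP lost it without KRT20-positive replicate 1 (0.0932) or 2 (0.103). Without KRT20-negative replicate 3, ALB (log2 -0.37, adjusted p = 0.00133) and FGB (-0.32, adjusted p = 0.0466) passed as well, so that 6 genes were lower. ALB also passed when genes with low counts were kept (adjusted p = 0.0296) and when a replicate block was fitted.

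**Figure D2:**
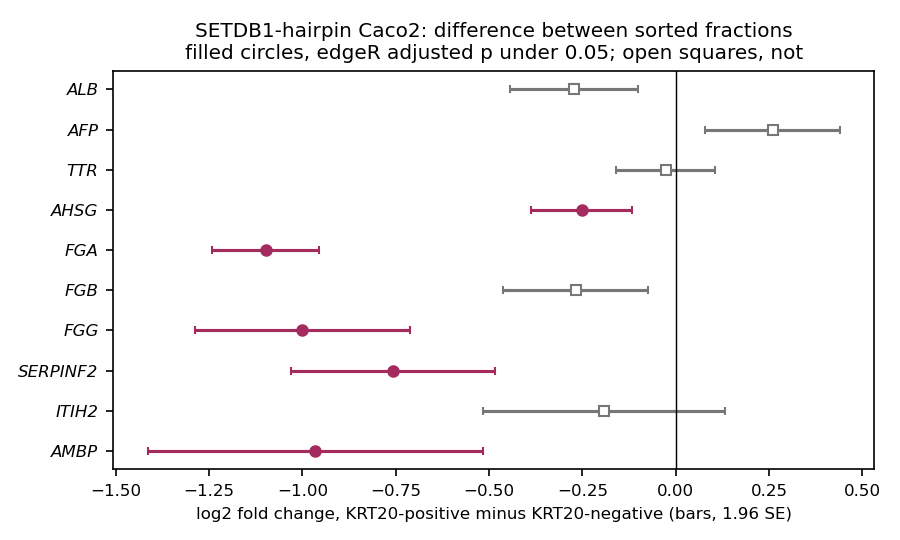
Fitted log2 fold change of KRT20-positive minus KRT20-negative shSETDB1 Caco2 cells (horizontal axis) for each of the 10 transcripts, with bars of 95% intervals from 3 libraries per fraction. FGA, FGG and AMBP lie near -1 and SERPINF2 at -0.76, whereas TTR, ITIH2, ALB, FGB and AFP (open squares) did not pass the test.

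The 3 fibrinogen chains did not keep one proportion. Among the counts of the 3 genes, FGA made up 37.5% ± 2.6 with vehicle, 27.5% ± 1.5 with the medium, 45.8% ± 4.0 in KRT20-negative and 35.3% ± 1.1 in KRT20-positive cells (SD, n = 3). FGB made up 29.6% ± 4.6, 48.3% ± 3.8, 36.0% ± 0.6 and 49.5% ± 1.4 in the same order. FGG made up 32.9% ± 3.0, 24.2% ± 5.0, 18.2% ± 3.7 and 15.2% ± 0.6. FGB thus had the largest share with the medium and in KRT20-positive cells, and FGA in KRT20-negative cells. With vehicle the shares of FGB, 26.5% to 34.9%, overlapped those of FGG, 29.7% to 35.7%. These shares rest on 248 to 316 counts per library with the medium, on 976 to 1090 with vehicle and on 3620 to 7647 in the hairpin cells. The genes lie within 1 stretch of chromosome 4 (GRCh38), FGB at 154562956 to 154571086, FGA at 154583126 to 154590766 on the opposite strand and FGG at 154604134 to 154612967, also on the minus strand.

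**Figure D3:**
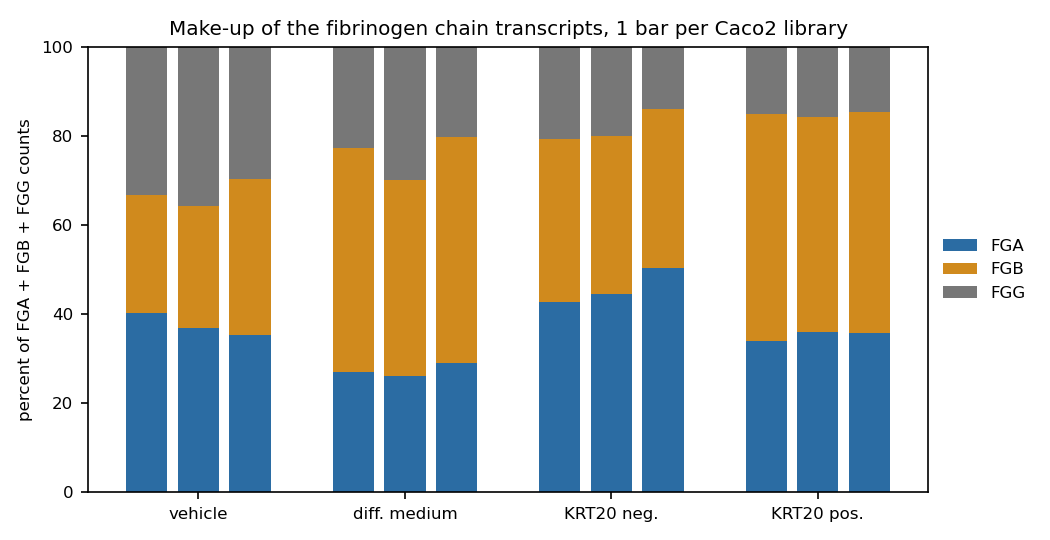
Share of FGA, FGB and FGG in the summed counts of the 3 genes (vertical axis, percent), 1 bar per Caco2 library in the order of replicates. FGB makes up 43.95% to 50.6% with differentiation medium and 48.1% to 50.9% in KRT20-positive cells, against 26.5% to 34.9% with vehicle.

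Other plasma proteins of the liver rose more often than they fell in the hairpin cells. Of a list of 66 such genes, 38 were expressed well enough to be tested. With differentiation medium 7 rose and 7 fell against vehicle, where 10.4% of all genes rose and 10.5% fell, and the list's median log2 change was 0.06. IGF2, the fetal growth factor, fell from 1840 to 959 CPM (log2 -0.94, SE 0.06, edgeR adjusted p = 1.08e-10). The complement genes C3 and C4BPA and the acute-phase gene ORM1 rose, C3 from 36.6 to 82.8 CPM (1.18, SE 0.12, adjusted p = 7.72e-08), C4BPA from 6.68 to 17.2 and ORM1 from 6.22 to 15.6 (adjusted p = 7.01e-07 and 4.38e-07).

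In KRT20-negative shSETDB1 cells 31 of the 38 rose and 3 fell against vehicle (18.6% and 17.6% of all genes), with a median of 1.37. GC, the vitamin D-binding protein and a relative of albumin, rose from 0.376 CPM (8 counts in 3 libraries) to 49.6 CPM (log2 7.03, SE 0.24, adjusted p = 7.26e-17). APOH rose from 36.4 to 373 CPM (3.36, SE 0.09, adjusted p = 1.14e-18). ORM1 and ORM2, near-identical acid glycoproteins between which tags may be split uncertainly, reached 42.0 and 41.1 CPM. In KRT20-positive cells 25 rose and 2 fell (19.3% and 18.4% of all genes), with a median of 0.91, and GC reached 75.9 and APOH 286 CPM. Between the fractions 3 were higher and 7 lower in KRT20-positive cells (2.3% and 1.78% of all genes). Among them were GC (0.61, SE 0.11, adjusted p = 0.00175) and C4BPA (0.78, SE 0.12, adjusted p = 0.000289) upward and APOH (-0.38, SE 0.08, adjusted p = 0.00501) and IGF2 (-0.55, SE 0.06, adjusted p = 2.40e-06) downward.

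Liver enzymes and transporters were tested with 31 of 51 listed genes. With the medium 4 rose and 7 fell, where 10.4% and 10.5% of all genes did. Those that fell included CPS1, the entry enzyme of the urea cycle, from 50.6 to 11.5 CPM (log2 -2.13, SE 0.19, adjusted p = 9.72e-07), the asialoglycoprotein receptor ASGR1, from 70.0 to 37.1 (adjusted p = 4.14e-07), and the sulfotransferase SULT2A1, from 50.8 to 20.6 (adjusted p = 1.70e-05). In KRT20-negative cells 22 rose and 0 fell (18.6% and 17.6% of all genes), with a median of 1.05. In KRT20-positive cells 25 rose and 1 fell (19.3% and 18.4% of all genes), with a median of 1.64. PCK1, of gluconeogenesis, rose from 2.35 to 34.0 and 65.8 CPM in the 2 fractions (adjusted p = 3.52e-13 and 2.29e-15). Between the fractions 5 were higher and 2 lower in KRT20-positive cells (2.3% and 1.78% of all genes). Among them were PCK1 (0.95, SE 0.14, adjusted p = 8.13e-05), which was higher, and the alcohol dehydrogenase ADH4, which was lower (-0.88, SE 0.14, adjusted p = 0.000293). The list's median between the fractions was 0.32, and that of the 10 plasma protein genes -0.27.

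Of 34 transcription factors and other regulators of hepatocytes, 31 were tested. With the medium 8 rose and 12 fell (10.4% and 10.5% of all genes), with a median of -0.18. CEBPA rose from 296 to 491 CPM (0.73, SE 0.08, adjusted p = 1.90e-07) and CEBPD from 33.4 to 75.8, whereas PROX1 fell from 42.8 to 21.1 and MLXIPL from 37.0 to 18.2. In the hairpin fractions 16 and 15 rose (18.6% and 19.3% of all genes) and 3 and 3 fell (17.6% and 18.4%), with medians of 0.35 and 0.32. CEBPA was at 641 and 685 CPM there (adjusted p = 4.96e-11 and 8.63e-12), so it was higher both with the medium, where most of the 10 genes were lower, and in the hairpin cells, where they were higher. Between the fractions 2 rose and 2 fell (2.3% and 1.78% of all genes), NR1H4 and CREB3L3 upward and PROX1 and MLXIPL downward. Without KRT20-negative replicate 3, the counts against vehicle were 31 higher and 3 lower for the plasma proteins, 23 and 1 for the enzymes and 17 and 4 for the regulators. Between the fractions they were 3 higher and 6 lower, 6 and 2, and 1 and 2 in the same order, so 1 of the regulators named as higher may lose its call.

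HNF4A and the FOXA genes, named with their values known because their motifs were searched in the promoters, differed less than CEBPA. HNF4A fell with the medium from 442 ± 5 to 334 ± 12 CPM (SD, n = 3; log2 -0.41, SE 0.09, edgeR adjusted p = 0.00177), and in the hairpin fractions, at 484 ± 80 and 487 ± 18 CPM, it did not pass the test (adjusted p = 0.269 and 0.227). FOXA1, FOXA2 and FOXA3 each fell with the medium, by 0.65, 0.26 and 0.40 on the log2 scale (adjusted p = 0.00936, 0.0261 and 0.0321), and none passed in either hairpin fraction (adjusted p of 0.176 to 0.672).

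**Figure D4:**
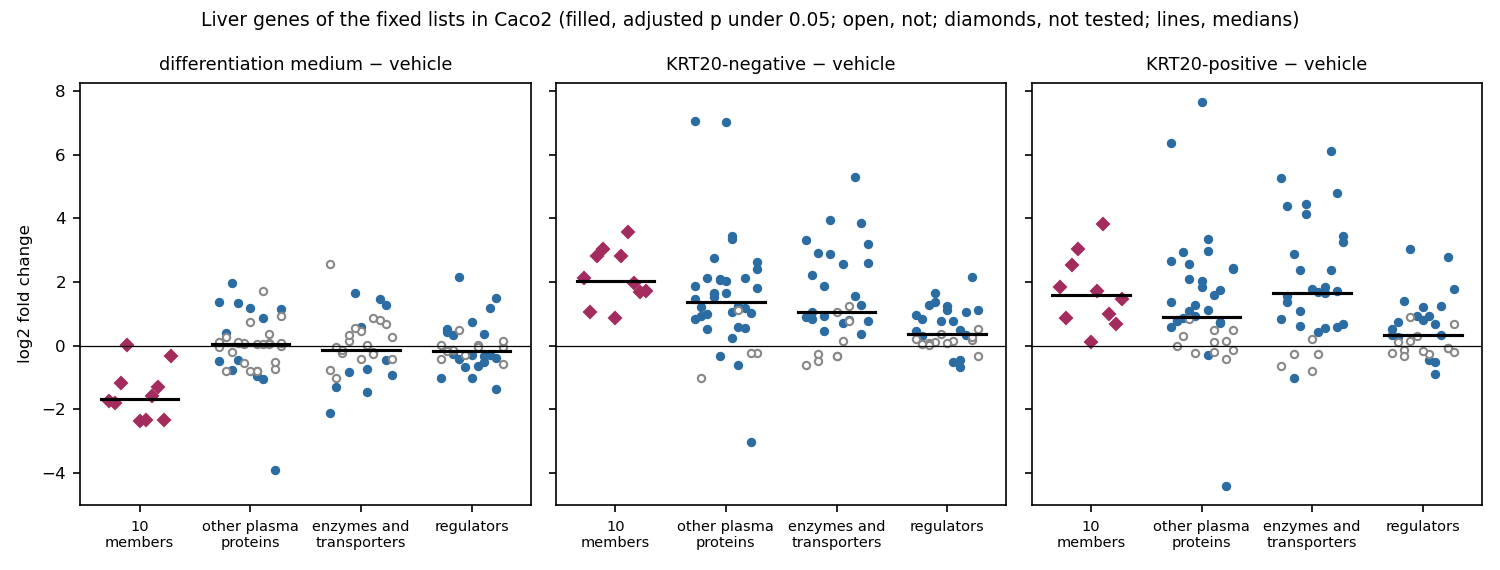
Fitted log2 fold change against vehicle (vertical axis) in Caco2 of the 10 plasma protein genes (diamonds, not tested) and of the 38, 31 and 31 tested genes of the other lists, with medians as lines. The medians of the 3 tested lists are 0.06, -0.13 and -0.18 with differentiation medium and lie above 0 in both hairpin fractions. The place of the 10 genes with the medium was set by how they were chosen.

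Among the 11568 other genes at 5 CPM or more in some Caco2 group, ADAM23, APOB, BPHL, KCNQ1OT1, ACADSB and C5orf42 had the profiles most like the mean of the 10, with a Pearson r of 0.986 to 0.993 over the 12 libraries. The libraries form 4 groups of 3, so the likeness is mostly one of group means. APOB, the protein of liver and gut lipoproteins, was at 499 ± 6 CPM with vehicle, 283 ± 22 with the medium, 1626 ± 157 in KRT20-negative and 1410 ± 43 in KRT20-positive cells (SD, n = 3). ADAM23, a membrane protein best known in neurons, was at 53.0 ± 1.2, 35.5 ± 1.7, 114 ± 8 and 102 ± 4 CPM. KCNQ1OT1, an imprinted antisense RNA that tags counted without strand could mix with its host gene, was at 630 ± 50, 361 ± 30, 1282 ± 90 and 1053 ± 92 CPM.

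The genes that lie next to the 10 went both ways. The 3 nearest protein-coding genes on each side numbered 42, of which 26 were tested. With the medium 3 rose and 7 fell, where 10.4% and 10.5% of all genes did. In KRT20-negative cells 7 rose and 9 fell (18.6% and 17.6% of all genes), and in KRT20-positive cells 4 rose and 7 fell (19.3% and 18.4%). ALB (chr4:73397114-73421412, GRCh38) and AFP (chr4:73431138-73456174) are 9725 bases apart, and AFM (chr4:73481683-73504001), the vitamin E-binding member of the same family, follows. The RefSeq promoter windows of ALB and AFP printed above lie inside these GENCODE spans, so the start sites and the gap depend on the annotation. AFM was at 2.24 CPM with vehicle and fell to 0.137 with the medium, 0.256 in KRT20-negative and 0.0914 in KRT20-positive cells (log2 -3.91, -3.03 and -4.41, with SE 0.78, 0.67 and 0.84; edgeR adjusted p = 0.000818, 0.000964 and 0.000198). These AFM levels rest on 48 counts over the 3 vehicle libraries and on 3, 7 and 2 counts in the other groups, in the same order. AFM was thus near the limit of detection outside vehicle, and lower in hairpin cells, where ALB and AFP were higher. On the other side ANKRD17 fell in all 3 comparisons, by 0.42, 0.34 and 0.34 on the log2 scale (adjusted p = 0.00173, 0.00529 and 0.00504). CXCL8, a chemokine gene further along, rose in KRT20-negative cells, from 0.862 to 8.75 CPM (log2 3.34, SE 1.08, adjusted p = 0.0409). Whether that call holds without KRT20-negative replicate 3 was not examined.

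Beside AHSG on chromosome 3, KNG1, the kininogen gene, rose in both fractions, from 7.21 to 16.7 and 12.4 CPM (adjusted p = 2.62e-05 and 0.00309). Beside the fibrinogen genes PLRG1, a splicing factor, fell in all 3 comparisons, by 0.33, 0.29 and 0.38 (adjusted p = 0.0129, 0.0176 and 0.00254). Beside AMBP on chromosome 9, ORM1, given above, ZNF618 and COL27A1 rose in both fractions, ZNF618 from 9.36 to 18.4 and 18.6 CPM (adjusted p = 0.000337 and 0.000309) and COL27A1 from 65.3 to 87.6 and 88.3 CPM (adjusted p = 0.00112 and 0.000853). KIF12, in the same place, fell with the medium from 34.7 to 18.4 CPM (adjusted p = 6.70e-05), rose to 49.9 in KRT20-negative cells (adjusted p = 0.00336) and was lower again, at 33.8, in KRT20-positive than in KRT20-negative cells (adjusted p = 0.0144). SERPINF1, next to its relative SERPINF2 on chromosome 17, rose from 2.19 to 4.54 CPM in KRT20-negative cells (adjusted p = 0.0257) and was at 1.64 CPM in KRT20-positive cells, lower than in the negative fraction (adjusted p = 0.0240). TAF3, beside ITIH2, fell in all 3 comparisons (log2 -0.66, -0.84 and -0.83), as did PRPF8, beside SERPINF2 (-0.33, -0.39 and -0.49). DNAJB11, beside AHSG, and RGS3, beside AMBP, fell in both fractions. TLCD2, beside SERPINF2, and B4GALT6, beside TTR, passed as lower in KRT20-negative cells. With the medium SMYD4, beside SERPINF2, fell, whereas RPA1, also beside SERPINF2, and DSG2, beside TTR, rose.

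The label of a liver-like programme was held against marker genes. Leaving out ALB and TTR, the 14 other hepatocyte markers summed to 658 to 713 CPM with vehicle, 610 to 630 with the medium, 2127 to 2244 in KRT20-negative and 1955 to 2043 in KRT20-positive cells. The apolipoprotein APOA2 made up the largest part of each sum, so the sums mainly follow that gene. With the medium APOH, SERPINA1, ASGR1, ASGR2 and CPS1 fell (log2 -0.79, -0.47, -0.92, -0.74 and -2.13, edgeR adjusted p of 4.14e-07 to 0.00564). HP, HPX, TF and CYP3A4 did not pass. Several defining genes of mature hepatocytes were at or near 0 throughout: CYP2E1 was at 0 in all 6 scramble libraries and 0.202 to 0.469 CPM in hairpin cells, ARG1 did not exceed 0.354 CPM, TAT did not exceed 1.06 CPM and SERPINC1 did not exceed 2.12 CPM. TF, the transferrin of adult plasma, had 1 count in the 3 vehicle libraries and reached 8.12 ± 2.19 CPM in KRT20-negative and 5.09 ± 1.49 in KRT20-positive cells (SD, n = 3). The 14 markers of enterocytes and colon epithelium, KRT20 among them, summed to 2878 to 2941 CPM with vehicle, 3442 to 3482 with the medium, 3108 to 3279 in KRT20-negative and 3994 to 4251 in KRT20-positive cells. CDX2, the intestinal master regulator, was at 451 ± 14, 503 ± 19, 652 ± 44 and 681 ± 22 CPM in that order, and VIL1, the villin gene, at 86.4 ± 2.3, 84.5 ± 3.5, 76.0 ± 2.3 and 80.4 ± 6.1 CPM (SD, n = 3).

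HCT116 and SW480 expressed most of the 10 genes far less than Caco2, and unevenly between replicates. On a scale with factors over all 30 libraries, the medians over the 9 libraries of a line ranged from 0 to 18.97 CPM in HCT116 and from 0 to 9.93 CPM in SW480. The highest level of any of the 10 was 137 CPM, of AFP in KRT-negative HCT116 replicate 1, against 128 to 6233 CPM for AFP in Caco2. AMBP was the exception, with a median of 4.06 CPM in the 12 Caco2 libraries, 3.78 in HCT116 and 9.93 in SW480. SERPINF2, with medians of 18.4, 4.34 and 3.86 CPM, overlapped between the lines. TTR and FGA had 0 counts in all 9 SW480 libraries, and TTR had counts in 1 of 9 HCT116 libraries, at 5.03 CPM. In unsorted HCT116 cells, replicate 2 held 2187 counts of 8 of the genes, replicate 3 held 73 of 5 genes and replicate 1 held 1 count of 1 gene. AFP there was at 0, 102 and 0.398 CPM and AHSG at 0, 111 and 2.78 CPM, and the SD within this group, 58.8 and 63.2 CPM, exceeded the differences between the group means of the line.

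**Figure D5:**
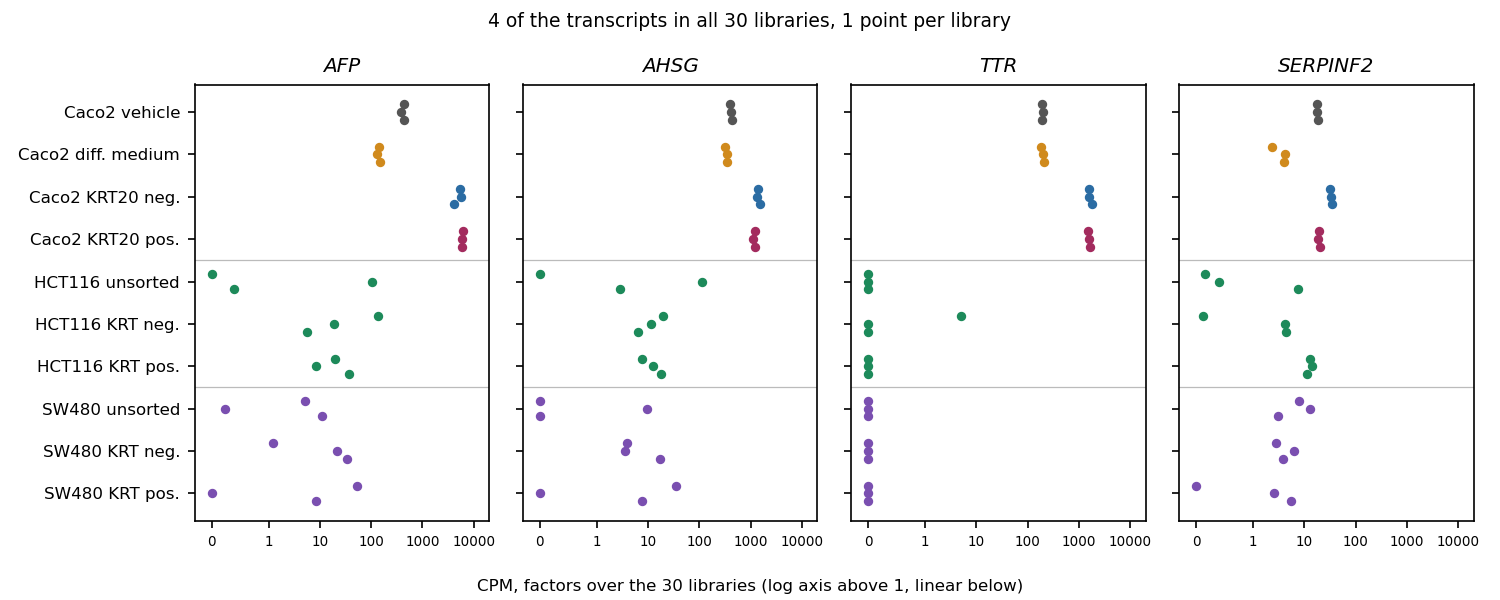
CPM of AFP, AHSG, TTR and SERPINF2 (horizontal axis, log above 1 and linear below) in the 30 libraries, 1 point per library, by group from top to bottom. The Caco2 libraries cluster by group, while the unsorted HCT116 libraries span from 0 to 102 CPM for AFP and to 111 CPM for AHSG, and the highest SW480 values are 54.1 and 34.4 CPM.

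None of these genes passed the edgeR test in either line with all libraries. The labels were borne out only in part. In HCT116, SETDB1 was at 67.5, 65.9 and 15.7 CPM in unsorted libraries, 0, 5.35 and 2.76 in those labelled shSETDB1 KRT-negative and 1.99, 18.6 and 29.2 in those labelled KRT-positive, of which replicates 2 and 3 lay above the lowest unsorted library. In SW480, SETDB1 was at 36.1, 35.4 and 14.9 CPM in unsorted libraries, 37.2, 0.223 and 3.22 in those labelled shSETDB1 KRT-negative, of which replicate 1 lay above all unsorted ones, and 0, 0 and 11.9 in those labelled KRT-positive. KRT20 was at 0, 0 and 5.45 CPM in the HCT116 libraries labelled KRT-positive, and at 73.2, 52.5 and 43.9 CPM in those of SW480. In HCT116, 7 of the 10 genes could be tested and edgeR called 0 in KRT-negative against unsorted cells (5.26% of all genes were called), 0 in KRT-positive against unsorted (9.28%) and 0 between the fractions (0.55%). ALB was the only one with an unadjusted p under 0.05, in the 2 comparisons with unsorted cells, where it had 0 counts in all 3 libraries (adjusted p = 0.246 and 0.166), and DESeq2 called it in the KRT-positive one (adjusted p = 0.0464). In SW480, 6 of the 10 could be tested and edgeR called 0 in the same 3 comparisons (2.12%, 3.47% and 0.445% of all genes), with 0 at an unadjusted p under 0.05 and 0 by DESeq2. These counts depended on 1 library of each line. Without unsorted HCT116 replicate 2, which left 2 AFP counts in the unsorted group, AFP passed as higher in KRT-negative (adjusted p = 0.0148) and KRT-positive cells (adjusted p = 0.0193). Without unsorted SW480 replicate 2, the only unsorted SW480 library with AMBP counts, AMBP passed as higher in KRT-positive cells (adjusted p = 0.0450).

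SERPINF2 in HCT116 libraries labelled KRT-positive, at 13.1, 14.2 and 10.99 CPM, lay above the KRT-negative ones, at 0.114, 4.14 and 4.34, and above the unsorted ones, at 0.151, 0.401 and 7.36. Of all genes tested in HCT116, 8.77% were likewise higher in every KRT-positive than in every KRT-negative library, and 15.7% than in every unsorted one. The fitted log2 differences of 2.15 (SE 1.65, adjusted p = 0.749) and 2.28 (SE 1.67, adjusted p = 0.492) did not pass the test. The direction is the opposite of that in Caco2, but the difference between the lines, -2.87 on the log2 scale for Caco2 minus HCT116, did not pass either (adjusted p = 0.248 in a joint edgeR fit).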

How the data were processed

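The authors deposited raw counts per gene symbol, 1 table per QuantSeq library, as whole numbers, which was checked. Bowtie2, edgeR and hg19 are named in the submitters' processing notes, while the counting tool and the annotation are not given in the sources used here. Of 25737 lines per table, 1561 repeated 1 of 286 symbols and were summed. None of the 10 genes was among them.

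All groups of a line entered 1 fit in edgeR 4.0.16 (R 4.3.3), with genes kept by filterByExpr, TMM scaling and robust quasi-likelihood F tests, and with 13968, 13279 and 13252 genes tested in Caco2, HCT116 and SW480. A gene was called at an adjusted p (Benjamini-Hochberg over all tested genes of the line) under 0.05. The SE is the log2 fold change over the square root of F, and 95% intervals are normal intervals from it. Levels are CPM with TMM factors, and fold changes are ratios of group means. Scripts were tested on simulated data.

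The 10 genes, the lists and the tests were chosen with earlier results of these data known. Named besides the 10 genes are SETDB1 and KRT20, from each list and comparison up to 4 called genes with the smallest adjusted p and 5 CPM or more, the 6 genes with the most similar profiles, called locus neighbours and defining markers. Genes outside this rule are named as such, and some genes of the lists are not reported here by name. Positions come from GENCODE on GRCh38 and the promoters from RefSeq on GRCh38.p14, not from the authors' hg19. The alternatives tried were DESeq2 1.42.0, scaling by RLE or by library totals alone, keeping genes with low counts, a replicate block, a fit of the compared groups only, and leaving out each library in turn.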

Additional observations from a re-analysis of the deposited data

How the results depend on the processing

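Under the alternatives, 505 of 520 values of single genes and 231 of 245 counts over lists kept their direction and side of the threshold or stayed close to the main value. The 5 genes called between the Caco2 fractions became 3 to 6 on leaving out 1 library, 3 without KRT20-positive replicate 1 or 2. Other plasma proteins called between the fractions went from 10 to 5 with only those 2 groups fitted and to 5 to 9 without 1 library (5, 6 and 6 without KRT20-positive replicates 1, 2 and 3). Regulators went from 4 to 0 to 3 (0, 2 and 1 without the same libraries), and the cause was not tested. Enzymes and transporters called there went from 7 to 11 (7 higher, 4 lower) with a replicate block and to 5 to 10 without 1 library. The TTR difference between medium and vehicle, 0.02, was -0.0178 with library totals and -0.000502 to 0.0682 without 1 library. In HCT116, DESeq2 called 1 of the genes in KRT-positive against unsorted cells, where edgeR called 0. Leaving out 1 library, an alternative added after seeing the data, gave 0 to 1 calls for both HCT116 comparisons with unsorted cells and for KRT-positive against unsorted SW480 cells (1 without unsorted replicate 2 of the line), and 0 for the rest. Same-numbered Caco2 libraries had deviations that correlated weakly, at -0.000793 to 0.0866, but 12 of 12 libraries correlated best with their own number. The main fit does not treat the numbers as pairs. A replicate block raised the calls between the Caco2 fractions from 570 to 803 of 13968 genes, so some calls turn on this choice. With the block, 6 of the 10 genes were called between the fractions, ALB being the additional one (adjusted p = 0.0494), and 0 in either other line. Depth limits AMBP most: with the medium it rests on about 1.15 CPM.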

Other observations

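The other oncofetal genes went both ways. Of 14 such genes 12 were tested. With differentiation medium 1 rose and 7 fell, where 10.4% and 10.5% of all genes did. In KRT20-negative shSETDB1 cells 3 rose and 3 fell (18.6% and 17.6% of all genes), counts near those shares. In KRT20-positive cells 2 rose and 6 fell (19.3% and 18.4% of all genes). The median log2 changes were -0.28, 0.00 and -0.27. GPC3, a cell surface proteoglycan of fetal liver and liver cancer, rose from 190 ± 7 CPM with vehicle to 459 ± 33 in KRT20-negative and 395 ± 9 in KRT20-positive cells (SD, n = 3; log2 1.27 and 1.05, edgeR adjusted p = 1.07e-12 and 2.80e-11). TRIM71, a regulator of early development, fell in all 3 comparisons with vehicle, from 65.4 to 34.3, 41.6 and 29.4 CPM (adjusted p = 8.19e-07, 2.66e-05 and 9.40e-09). IGF2BP1, an RNA-binding protein of fetal tissue, fell in the same 3 comparisons, from 1079 to 868, 939.9 and 803 CPM (adjusted p = 0.00139, 0.0217 and 1.85e-05). IGF2, which is also in the plasma protein list, was lower in KRT20-positive than in KRT20-negative cells, at 1484 against 2171 CPM.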
